A study of Rattus norvegicus with 24 samples.

Results

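Small noncoding RNA features were described here across 2 brain regions of rats given fentanyl or saline. A feature was taken where the deposited tables gave it 1 exon entry, a length of 60 to 200 nt, a place on chromosomes 1 to 20 outside a stretch of chromosome 6 from 133.4 to 134.5 Mb, and at least 48 counts summed over the 24 libraries. This gave 647 of the 32552 features in the tables, 205 of them under 100 nt and 442 of 100 nt or more. The tables listed 4453 features of that shape outside the chromosome 6 stretch, and 1812 of these had no count in any library. The members were thus chosen by their summed counts, with a limit that is a mean of 2 per library, so their levels are given as a description. At the limit, 6 features had 48 counts and 12 features had 47. Among them were a 96 nt feature at chr20:27996722-27996817 and a 101 nt feature at chr14:30308423-30308523 just inside it. A 140 nt feature at chr4:147718275-147718414 and a 131 nt feature at chr1:174134781-174134911 lay just outside it.

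The tissue came from Sprague Dawley rats of both sexes given fentanyl, an opioid receptor agonist, or saline, in a study whose title names opioid withdrawal and a choice between fentanyl and food. Punches were taken from the nucleus accumbens (NAc), part of the ventral striatum, and the ventral tegmental area (VTA), the midbrain area whose dopamine neurons project to it. For each sex there were 4 rats with fentanyl and 3 with saline in the NAc, and 3 and 2 in the VTA. The 24 libraries came from 14 rats, 10 of which gave both regions. Brains were collected when the last choice session would have been held, and dose and age are not given in the labels used here. The NAc punch had an internal diameter of 2.16 mm and the VTA punch 1.19 mm, so region and punch size cannot be told apart. In bulk tissue, fewer cells of a type and less RNA per cell cannot be told apart either.

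Each value below is a count of sequenced fragments assigned to a feature, or that count per M counts of its library (CPM). Total counts per library were 3.46 to 5.01 M in the 14 NAc libraries and 4.49 to 6.3 M in the 10 VTA libraries. The mitochondrial share of the counts was 22.1% to 36.7% in the NAc and 17.6% to 26.9% in the VTA. Counts on the Y chromosome separated the 12 male libraries (956 to 1772) from the 12 female libraries (9 to 41). The tables pair no feature ID with a gene name, so members are given by ID or by length and position, on the coordinates of the deposited tables (their build is not given). For the same reason the tissue was not checked against marker genes.

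Small RNAs of this size include several families with housekeeping roles. Small nucleolar RNAs (snoRNAs) guide chemical modification of ribosomal RNA, and in mammals most of them are cut out of the introns of longer genes. Small nuclear RNAs (snRNAs) form the core of the spliceosome and have many pseudogene copies across the genome. MicroRNA precursors are shorter hairpins, from which mature microRNAs that repress target messenger RNAs are cut. Total RNA libraries made after ribosomal depletion record such RNAs only in part, because column purification and size selection favour longer molecules. They also record intronic RNA of unspliced transcripts, which can be counted on a small feature that lies inside an intron.

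The lengths of the members were not spread evenly. There were 47 members of exactly 107 nt, 19 of 78 nt, and 16 each of 101, 131 and 132 nt. Of the 4453 features of that shape, 364 were 107 nt long. In the RefSeq annotation of the rat assembly GRCr8, which was not matched to the members feature by feature, 352 of the 362 genes of 107 nt are snRNAs and 139 of the 151 genes of 78 nt are snoRNAs. RefSeq genes of 132 nt are snoRNAs in 135 of 142 cases. Of the 29 RefSeq genes of 101 nt, none is classed as a snRNA or snoRNA, though 5 are listed under the snRNA name Rnu6. Grouped more widely, 93 members were 104 to 108 nt long, a range in which 553 of 623 RefSeq genes are snRNAs. A further 133 members were 125 to 137 nt long, where 660 of 791 are snoRNAs, and 51 were 77 to 80 nt long, where 170 of 235 are snoRNAs. Other classes prevail elsewhere: 77 members were 109 to 124 nt long, where 320 of 597 RefSeq genes are pseudogenes. Another 50 were 60 to 76 nt long, where 493 of 814 are transfer RNAs. The deposited tables list only 446 features of that shape in this range, and at 72 nt 28 against 189 RefSeq transfer RNAs. The RefSeq mix of this range therefore does not give the class of these members. The 77 to 80 nt range passed the count limit most often, with 24.6% of the 207 features of that shape and length. The other length ranges, which like this one were set after the lengths were seen, lay between 11.2% and 17.8%.

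**Figure D1:**
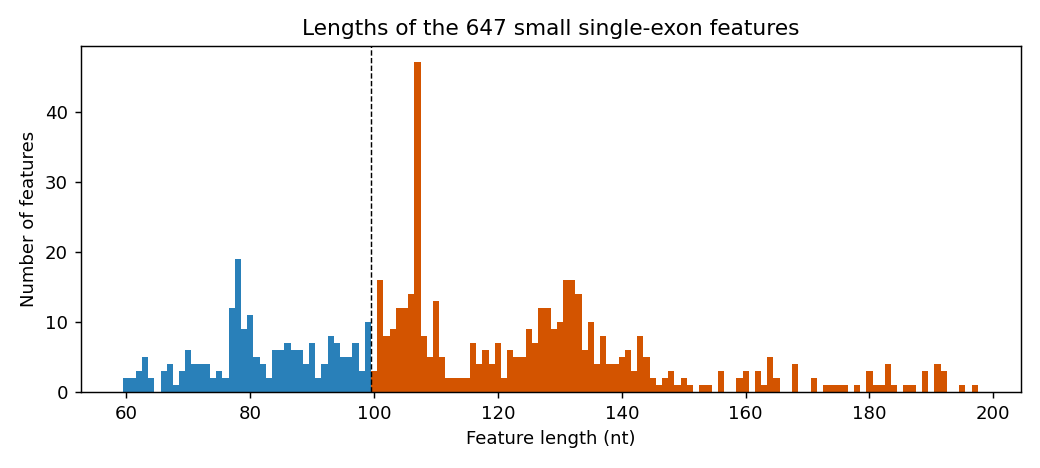
Number of members (vertical axis) at each feature length in nt (horizontal axis), with the dashed line at the limit of 100 nt between the length classes. The tallest column is the 47 members of 107 nt, and other maxima stand at 78 nt and at 131 to 132 nt.

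More than in the features of the same shape below the count limit, the members lay inside longer features. There were 205 members (31.7%) within an intron of a longer feature on the same strand and 186 (28.7%) within an intron of a feature on the other strand, against 16.8% and 9.09% of the features of that shape below 48 counts. Another 227 (35.1%) lay outside all other features, against 66.0%. The remaining 29 overlapped an exon, 26 on the same strand and 3 on the other. In all, 420 members lay over 376 distinct longer features, 33 of which covered 2 or more members. The strand setting of the counting is not given in the sources used here, so reads of the longer feature and of the member cannot be separated. These classes of position were set after the data were seen.

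A single feature held 43.4% of the 312650 counts assigned to the members, which in turn were 0.278% of all counts. This was ENSRNOG00000060430, 112 nt on the minus strand at chr4:77463050-77463161, with 135588 counts. It lay outside all other features, and beside it stood the member with the next most counts, ENSRNOG00000056608, 102 nt on the plus strand at chr4:77459794-77459895, with 12802 counts. The 10 largest members held 56.4% of the counts and the 50 largest held 70.7%. Most members were sparse: the quartiles of the summed counts were 71, 113 and 230.5, and 267 members had a count in each of the 24 libraries. Members of 100 nt or more held 82.8% of the counts, but per length the shorter class had the higher median, 13.4 CPM per kb against 8.08.

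The 112 nt feature ran from 853 to 1845 CPM in the NAc (median 1289) and from 969 to 1423 CPM in the VTA (median 1148). The 102 nt feature beside it ran from 70.2 to 171 CPM in the NAc (median 110) and from 97.8 to 145 CPM in the VTA (median 110). For both, the range in the VTA lay inside the range in the NAc. Next by level per length among members of 100 nt or more was a 156 nt feature at chr13:52265945-52266100, with 33.6 to 72.7 CPM in the NAc and 42.2 to 72.3 CPM in the VTA. Among members under 100 nt the highest level per length belonged to a 78 nt feature at chr1:116751203-116751280, with 11.5 to 57.6 CPM in the NAc and 10.7 to 43.5 CPM in the VTA. A 96 nt feature at chr11:61996027-61996122 followed, with 30.1 to 55.9 CPM in the NAc (median 40.8) and 16.4 to 26.1 CPM in the VTA (median 18.1). Its regions did not overlap.

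Within the 10 rats that gave both regions, NAc and VTA were compared first. Members were far more often lower than higher in the VTA, while called genes as a whole were split about evenly. A call was a Benjamini-Hochberg adjusted p under 0.05 over all genes tested, from the quasi-likelihood test of edgeR with the rat as a block. Of all 14795 features tested, 63% were called (32% higher and 31% lower in the VTA), with a median log2 fold change of 0.02. Of the 321 members that passed the filter on low counts, 20 were higher and 145 lower in the VTA, with a median of -0.66. Both counts include members that reached the limit of summed counts through a single region, some of which are given below as descriptions. The split without such members is not given here. With no filter, all 647 members were tested: 27 were higher and 174 lower, with a median of -0.51, where 18.6% of all 26749 features were called higher and 16.8% lower (35.4% in all). Scaling by library totals alone moved the median of all features to 0.17 and the split of the called members to 26 higher and 118 lower, against 39.4% higher and 23.3% lower among all features (62.6% called).

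The difference was present in both length classes and in each class of position. Under 100 nt, 8 members were higher and 54 lower of 104 that passed the filter (median -0.76), and from 100 nt up 12 were higher and 91 lower of 217 (median -0.63). Within introns on the same strand, 5 were higher and 42 lower of 97, and within introns on the other strand 4 were higher and 45 lower of 87. Members outside other features had 11 higher and 50 lower of 122, with a median of -0.55. By plain CPM, 454 of the 647 members (70.2%) had the lower mean in the VTA, against 40.7% of the 16680 features with at least 48 counts. At least 9 of the 10 rats had the lower value in the VTA in 124 members (19.2%, against 18.1% of those features) and the higher value in 25 (3.86%, against 30.9%).

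**Figure D2:**
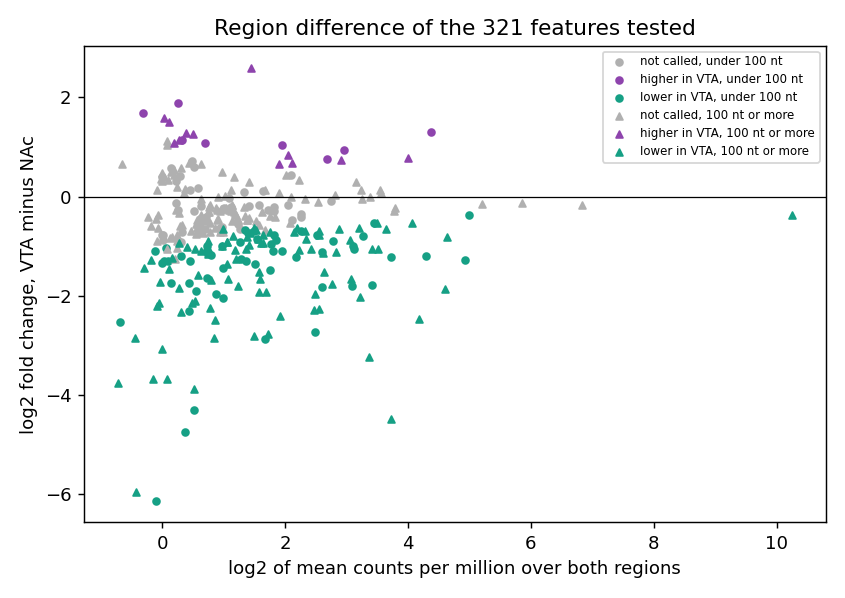
Log2 fold change of VTA minus NAc (vertical axis, below 0 is lower in the VTA) against the log2 mean CPM over both regions (horizontal axis) for the 321 members tested, circles under 100 nt and triangles from 100 nt up. Most coloured points, the called members, lie below the line at 0, and the 112 nt feature stands alone at the right.

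Other features with 1 exon entry were set beside the members by length, a comparison chosen after the values were seen. Among those that passed the filter, the median log2 fold change was -0.52 over 56 features of 201 to 300 nt, -0.28 over 124 of 301 to 500 nt, -0.11 over 127 of 501 to 1000 nt and -0.06 over 362 longer features. Features with 2 or more exon entries had a median of 0.05 (13193 features). With no filter and at least 48 counts, the medians followed the same order by length, from -0.64 over the 205 members under 100 nt and -0.46 over the 442 longer members to -0.01 over 425 features above 1000 nt. The 43 features of the same shape in the chromosome 6 stretch had a median of -0.40. The difference between the members and these other features was not tested.

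Summed over the class, members under 100 nt took 560 ± 49.3 CPM in the NAc (SD, n = 14) and 394 ± 56.4 CPM in the VTA (SD, n = 10), and the sum was lower in the VTA in 10 of 10 rats. Members of 100 nt or more took 2529 ± 318 CPM and 2080 ± 134 CPM, lower in the VTA in 9 of 10 rats. Without the 112 nt feature that class took 1248.5 ± 91.6 CPM in the NAc and 938 ± 42.5 CPM in the VTA, lower in 10 of 10 rats. Features of the same shape below 48 counts differed less, with 193 ± 20.4 CPM and 180 ± 21.1 CPM and a lower sum in the VTA in 7 of 10 rats. Mitochondrial counts also took a smaller share in the VTA (above). With the mitochondrial features left out of the fit, 19 members were higher and 144 lower, against 32.6% and 30.6% of all features (63.2% called). Without the rat as a block 162 members were called, against 62.7% of all features.

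**Figure D3:**
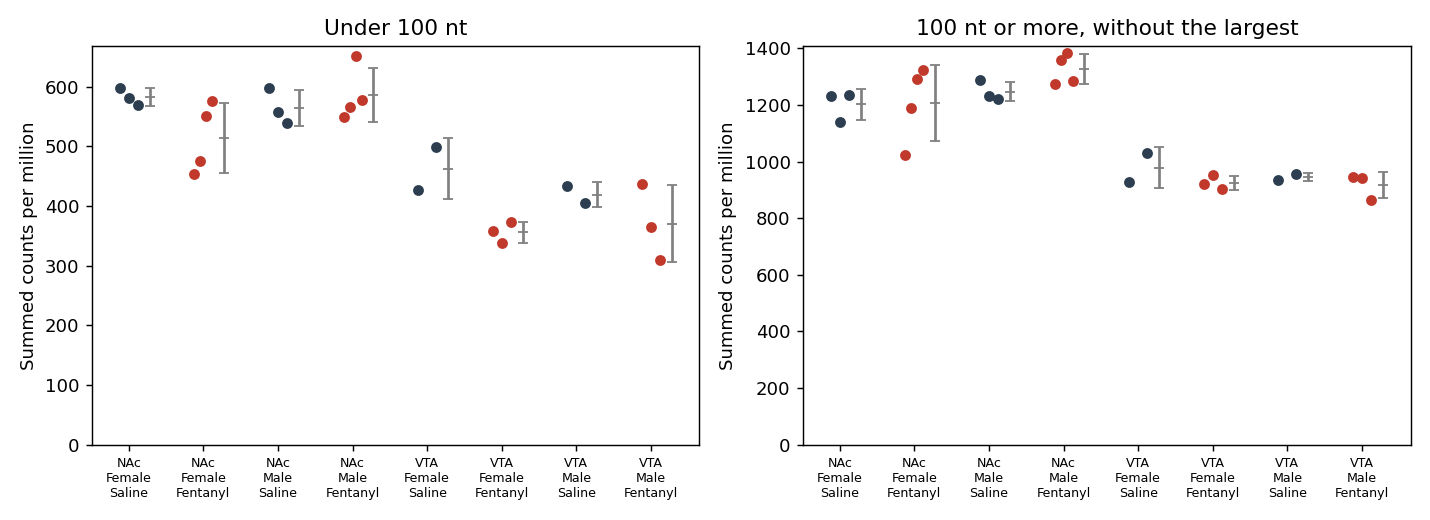
Summed CPM of members under 100 nt (left) and of members of 100 nt or more without the 112 nt feature (right), vertical axes from 0, in each library by group; dark points are saline, red points are fentanyl, and grey bars give the mean and SD of a group. All group means of the NAc lie above all group means of the VTA in both panels.

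Among members lower in the VTA, the call with the smallest adjusted p was ENSRNOG00000047006, 110 nt at chr2:179591312-179591421. It had 33.2 to 43.3 CPM over the NAc libraries (median 36.4) and 8.64 to 14.3 CPM over the VTA libraries (median 11.3). The ranges did not overlap, and the log2 fold change was -1.87 ± 0.10 (SE; edgeR, adjusted p 4.33e-12). This member overlaps an exon of a longer feature on its strand, whose own log2 fold change was -2.10.

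A larger difference was seen for ENSRNOG00000055354, 107 nt at chr2:155813066, with 18.9 to 33.7 CPM in the NAc and 0.173 to 2.89 CPM in the VTA. Its log2 fold change was -4.50 ± 0.25 (edgeR, adjusted p 6.51e-11), and that of the feature on the other strand in whose intron it lies was -2.37. A 104 nt feature at chr5:93420325, outside other features, had 9.63 to 42.1 CPM in the NAc and 0.51 to 3.29 CPM in the VTA, a change of -3.24. A 126 nt feature at chr15:110646161, also outside other features, had 23.0 to 36.4 CPM against 2.55 to 13.4 CPM, a change of -2.48. For each of these members the NAc and VTA libraries did not overlap and 10 of 10 rats were lower in the VTA.

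A 79 nt feature at chr8:22050572 had 0.783 to 3.21 CPM over the NAc libraries and no count in any of the 10 VTA libraries. In the 10 rats with both regions the counts were 70 in the NAc and 0 in the VTA, at least 31.7-fold lower in CPM (floor: 3 counts for the VTA libraries together). The longer feature around it was itself lower, by -4.38 on the log2 scale. Low VTA levels were also found for a 78 nt feature at chr5:17059689 (148 counts in the 14 NAc libraries, 4 in the 10 VTA libraries) and a 63 nt feature at chr7:132941511 (158 and 7 counts). These 3 members reached the count limit through the NAc alone, so their difference is given as a description.

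Fewer members were higher in the VTA. ENSRNOG00000054047, 85 nt at chr3:124939267-124939351 and outside other features, had 5.65 to 20.1 CPM in the NAc (median 11.3) and 18.2 to 40.6 CPM in the VTA (median 31.0). Its log2 fold change was 1.30 ± 0.14 (edgeR, adjusted p 9.08e-08), and it was higher in 10 of 10 rats. ENSRNOG00000041523, 110 nt at chr5:116559504, had at most 1.41 CPM in the NAc and 3.29 to 6.17 CPM in the VTA, with no overlap. Its log2 fold change was 2.60, and that of the longer feature on the other strand was 0.44. With 37 counts in the NAc and 261 in the VTA, this member reached the count limit only through the VTA. Its difference is therefore given as a description. A 183 nt feature at chr1:141218095 (0.78) and a 180 nt feature at chr19:31615786 (0.73) were also higher. A 70 nt feature at chr8:13877750 was higher (0.93) while the longer feature around it, on the same strand, was lower (-1.02).

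Among the 8 members of 100 nt or more with the highest level per length, the 110 nt feature on chromosome 2 and the 126 nt feature on chromosome 15 are described above. The 112 nt feature was lower in the VTA by -0.37 ± 0.12 (edgeR, adjusted p 0.0104), in 7 of 10 rats. Values for the 102 nt feature (-0.18 ± 0.11, adjusted p 0.167), the 156 nt feature on chromosome 13 (-0.13, adjusted p 0.409) and a 178 nt feature at chr11:81376500 (-0.16, adjusted p 0.104) did not pass the test. A 134 nt feature at chr19:59872448 (-0.82) and a 108 nt feature at chr16:71097844 (-0.54) were lower. Each of the 8 members under 100 nt with the highest level per length passed it, 7 of them lower in the VTA. Of all features 63% were called, 31% lower.

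Members within introns went along with the longer feature they lie in. Over 95 pairs on the same strand, which involved 83 longer features, Spearman's rho between the log2 fold change of the member and that of the longer feature was 0.64. Over 87 pairs on opposite strands it was 0.65. The values of a pair come from the same libraries, and their reads may be shared, so these are descriptions. The member's value was the lower of the pair in 80 of 95 and 72 of 87 cases. The longer features had medians of -0.23 and -0.17, against -0.69 and -0.84 for the members. Of 47 called members on the same strand, the longer feature was called the same way in 39 and the opposite way in 2. Of 49 on the other strand these numbers were 34 and 4. Among all features tested, 63% were called, 32% higher and 31% lower in the VTA.

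**Figure D4:**
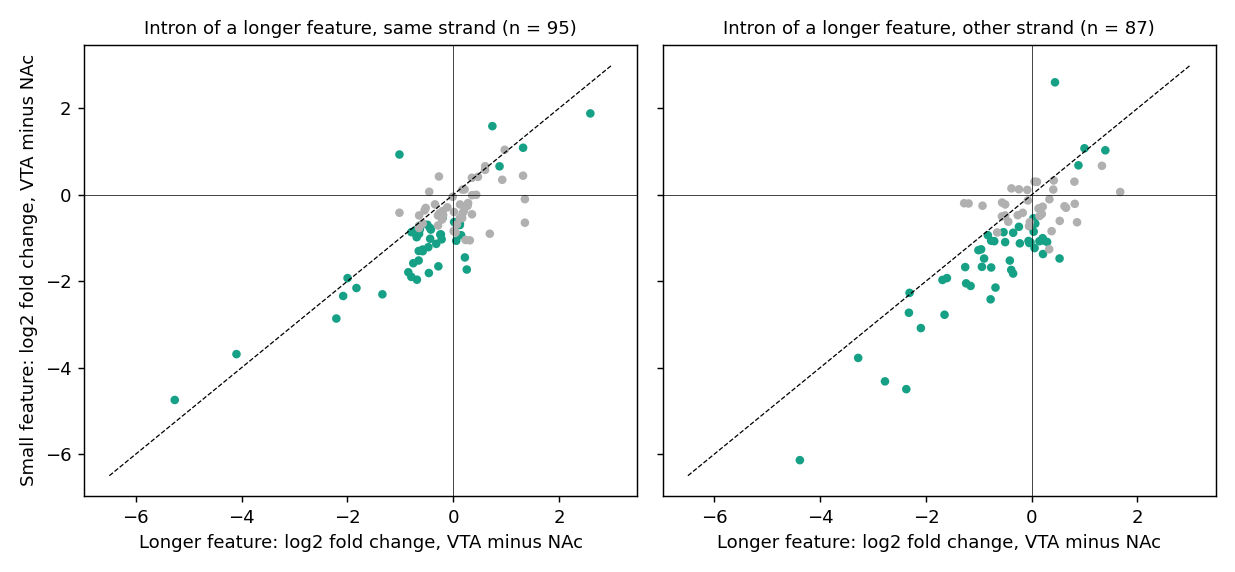
Log2 fold change of VTA minus NAc of each intronic member (vertical axis) against that of the longer feature over it (horizontal axis), on the same strand (left, n = 95) and on opposite strands (right, n = 87); green points are called members, grey points are not called. Points follow the direction of the dashed line of equal change but most lie below it.

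Fentanyl was then compared with saline in the NAc of females. Here 28 members were called of the 228 that passed the filter, 20 higher and 8 lower with fentanyl, which is 12.3% against 13.5% of all 13248 features tested (8.05% higher and 5.45% lower). With no filter, 26 of the 647 members were higher and 10 lower (5.56%), against 8.33% of all 24888 features (4.58% higher and 3.74% lower). The share among the members was thus near, or below, that among all features. Of the 28, 22 had no overlap between the groups (78.6%), against 73.6% of all called features.

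Scaling bore on the direction of these calls. The mitochondrial share was 29.2% to 36.7% in the 4 fentanyl females and 22.1% to 26.1% in the 3 saline females, with no overlap. Scaling by library totals moved the median of all features to -0.21 and the split of the members to 10 higher and 14 lower, where 20.3% of all features were called (3.39% higher and 16.9% lower). With the mitochondrial features left out of the fit the split was 20 higher and 8 lower, against 7.93% and 5.55% of all features. With the animal number as a block 24 members were called, against 10.8% of all features. Leaving out 1 NAc library at a time gave 10 to 33 called members (the shares of all features called in those fits are not given here). The count was 10 without saline female replicate 1, 15 without saline female replicate 4 and 18 without fentanyl female replicate 1. How far the mitochondrial share bears on single members was not tested.

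The smallest adjusted p among members that rose belonged to ENSRNOG00000036375, 113 nt at chr14:66535979. It had 10.1, 7.62 and 9.38 CPM in the saline females and 26.0, 17.8, 16.2 and 15.6 CPM in the fentanyl females. The groups did not overlap, and the log2 fold change was 1.28 ± 0.23 (edgeR, adjusted p 0.00134). ENSRNOG00000054249, 171 nt at chr3:29600426, had 2.09, 4.26 and 2.99 CPM with saline and 7.63, 8.69, 11.7 and 6.83 CPM with fentanyl. Its groups did not overlap either, with a change of 1.68 ± 0.32 (adjusted p 0.0019). The longer feature around it, on the other strand, changed by 0.19 and was not called (adjusted p 0.377).

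Further members that rose in NAc females were an 88 nt feature at chr6:78223217 (1.20), an 86 nt feature at chr15:37199157 (1.31), a 103 nt feature at chr3:140565380 (1.43) and the 104 nt feature on chromosome 5 that was low in the VTA (1.56). The 104 nt feature had 9.63, 9.86 and 10.2 CPM with saline and 42.1, 19.9, 17.5 and 20.5 CPM with fentanyl. For these 6 members, no alternative fit of 20 lost the call.

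The 112 nt feature rose as well, from 873, 912 and 1061 CPM to 1367, 1845, 1424 and 1323 CPM, with no overlap. Its log2 fold change was 0.86 ± 0.19 (edgeR, adjusted p 0.00935), and the call was lost without saline female replicate 1 (adjusted p 0.0523). The 102 nt feature beside it had 93.4, 74.2 and 104 CPM with saline and 85.1, 158, 110 and 142 CPM with fentanyl. Its groups overlapped, and the change was 0.65 ± 0.16 (adjusted p 0.011), lost without saline female replicate 1 (adjusted p 0.0522) or 2 (adjusted p 0.0601), with the animal number as a block, and with scaling by library totals. These features stand on opposite strands less than 100 kb apart.

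The member with the smallest adjusted p among those that fell was ENSRNOG00000045884, 101 nt at chr10:94982505. It had 12.1, 8.74 and 9.78 CPM with saline and 4.52, 3.81, 4.95 and 5.37 CPM with fentanyl, without overlap. Its change was -0.93 ± 0.23 (edgeR, adjusted p 0.0098), which did not pass with the animal number as a block (adjusted p 0.059) or without saline female replicate 1 (adjusted p 0.0668). ENSRNOG00000053570, 77 nt at chr4:8204279, had 5.03, 4.70 and 5.79 CPM with saline and 1.41, 1.27, 2.35 and 1.22 CPM with fentanyl. Its change was -1.52 ± 0.38 (edgeR, adjusted p 0.0101), which did not pass with the block (adjusted p 0.0756) or without saline female replicate 4 (adjusted p 0.0513).

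The 78 nt feature at chr1:116751203, the shorter class's most abundant member per length, fell from 57.6, 43.5 and 53.1 CPM to 19.2, 11.7, 11.5 and 34.7 CPM. The groups did not overlap and the change was -1.21 ± 0.29 (edgeR, adjusted p 0.0152). It did not pass without saline female replicate 1 (adjusted p 0.0628) or replicate 4 (adjusted p 0.0555). The 85 nt feature on chromosome 3 that was higher in the VTA also fell (-0.90), as did the 183 nt feature at chr1:141218095 (-0.85) and a 197 nt feature at chr18:28355319 (-1.14). For the 85 nt feature the call was lost without saline female replicate 1 or 4, for the 183 nt feature without fentanyl female replicate 1 or saline female replicate 1 or 2, and for the 197 nt feature without fentanyl female replicate 1 or 2 or saline female replicate 1 or 4.

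Of the 14 called intronic members whose longer feature was tested, 2 had a longer feature called in the same direction and none had one called in the opposite direction. The share, 2 of 14, was near the 13.5% of all features called. Over all 69 same-strand pairs tested in NAc females, Spearman's rho was 0.40, and over 64 pairs on opposite strands 0.14.

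**Figure D5:**
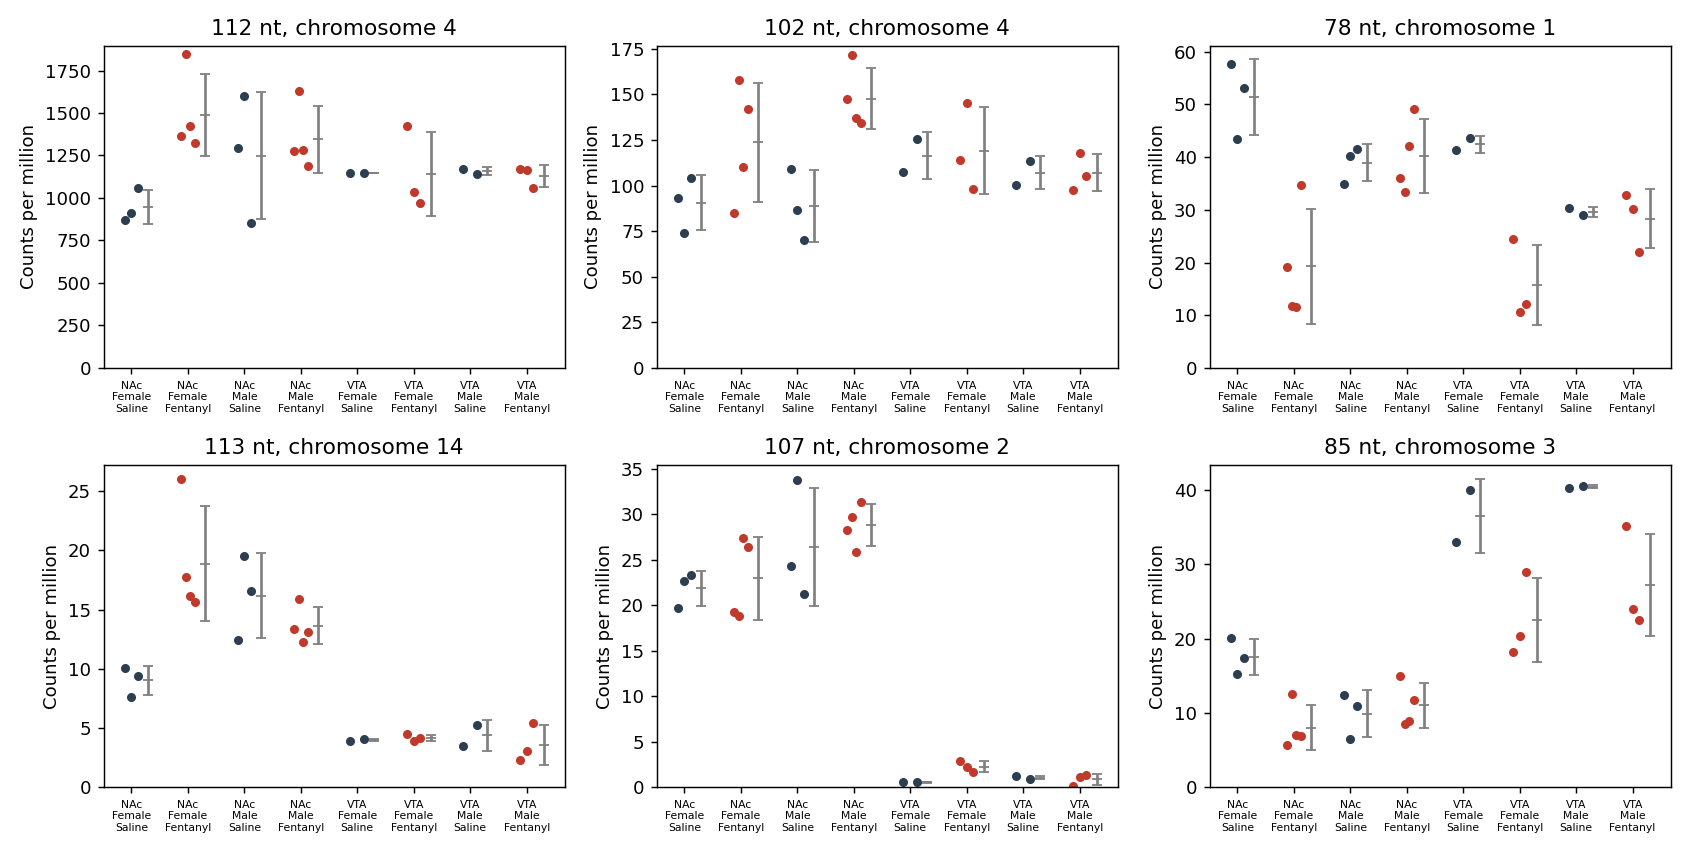
CPM (vertical axes from 0) of 6 members in each library by region, sex and treatment; dark points are saline, red points are fentanyl, and grey bars give the mean and SD of a group. The members were chosen after their values were seen: the 112 nt, 78 nt, 113 nt and 85 nt features separate saline from fentanyl females in the NAc, the 102 nt feature separates them in NAc males, and the 107 nt feature is low in all VTA groups.

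In NAc males no member was called by edgeR, where 0% of all features were called. An unadjusted p under 0.05 was seen in 8 of the 228 members (3.51%) and in 6.42% of all features. DESeq2 called 1 member, the 102 nt feature on chromosome 4 (0.0453% of all features called), and so did edgeR with no filter (0.185%). That feature had 109, 86.7 and 70.2 CPM in the saline males and 147, 171, 137 and 134 CPM in the fentanyl males, without overlap. The change was 0.73 ± 0.16 on the log2 scale, and the adjusted p was 0.419 by edgeR and 0.0402 by DESeq2. The next smallest unadjusted p values belonged to a 77 nt feature at chr3:154973554 (1.55, adjusted p 0.553) and, in the other direction, an 84 nt feature at chr8:44992796 (-1.01, adjusted p 0.571).

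Over both sexes in the NAc, 13 members were called of 228, 8 higher and 5 lower with fentanyl (5.70%). Of all features 7.51% were called, 4.52% higher and 2.99% lower. With no filter 11 were higher and 6 lower of 647, against 5.4% of all features (3.06% higher and 2.34% lower). Scaling by library totals gave 6 higher and 8 lower, against 8.71% (2.06% higher and 6.65% lower). The list shares its libraries with the female list, and 11 members stood in both (39.3% of the female list and 84.6% of this list). Of the 28 members of the female list, 16 changed in the same direction in males. The 86 nt feature on chromosome 15 and the 171 nt feature on chromosome 3 were called over both sexes. Their female effects exceeded their male effects by 1.25 and 1.53 (edgeR, adjusted p 0.0972 each). A call over both sexes thus does not show a change in each sex. The 102 nt feature had the smallest adjusted p, with a change of 0.69 ± 0.11 (edgeR, adjusted p 0.00281). It and the 88 nt feature on chromosome 6 (0.74 ± 0.17, adjusted p 0.0107) passed under each of the 20 alternative fits.

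The members called over both sexes and not in females were the 70 nt feature at chr8:13877750, which rose by 0.87, and the 84 nt feature at chr8:44992796, which fell by 0.81. The 84 nt feature had 12.1, 9.86 and 8.38 CPM in saline females, 7.07, 8.05, 4.17 and 3.17 CPM in fentanyl females, 10.1, 5.62 and 7.57 CPM in saline males and 3.21, 2.44, 5.22 and 4.62 CPM in fentanyl males. The groups did not overlap in either sex. The longer feature on its strand fell by 0.92 over both sexes. The call of the 84 nt feature was lost without fentanyl male replicate 1 or 2, saline male replicate 1 or 4, or saline female replicate 1 or 2, and that of the 70 nt feature without saline female replicate 4. With the animal number as a block 3 members were called (2.57% of all features): the 102 nt and 88 nt features, higher, and the 78 nt feature at chr1:116751203, lower. Leaving out 1 library gave 3 to 19 called members (the shares of all features called in those fits are not given here). The count was 3 without saline female replicate 1, 4 without saline male replicate 4, 5 without saline male replicate 1 or saline female replicate 4, 7 without fentanyl male replicate 1 or 2, and 8 without fentanyl male replicate 3 or saline female replicate 2.

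The effect of fentanyl differed between the sexes in the NAc for 1 member of 228, against 0.77% of all features. This was the 113 nt feature on chromosome 14. It had 12.4, 19.5 and 16.6 CPM in the saline males and 13.4, 15.9, 12.3 and 13.1 CPM in the fentanyl males, which overlapped, where the females had separated. The female effect minus the male effect was 1.55 ± 0.33 (edgeR, adjusted p 0.0233). The call was lost without any of 6 libraries: fentanyl male replicate 3 or 7, saline male replicate 3, and each of the 3 saline females, with adjusted p up to 0.144. DESeq2 called 4 members (1.93% of all features), edgeR with no filter 7 (1.56%) and the fit with the animal number as a block 3 (1.78%). The members added by DESeq2 and by the block were the 86 nt feature on chromosome 15 and the 78 nt feature at chr1:116751203, and DESeq2 added the 104 nt feature on chromosome 5.

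In the VTA no member of the 259 that passed the filter was called by edgeR in females, in males or over both sexes, and 0% of all 14400 features were. An unadjusted p under 0.05 was seen in 8 members in females (3.09%, against 7.63% of all features), 9 in males (3.47%, against 4.5%) and 14 over both sexes (5.41%, against 8.83%). With no filter, edgeR called 1 member in males (0.45% of all features) and 2 over both sexes (1.97%). DESeq2 called 1 member in females and none in males or over both sexes, where it called 0.257%, 0.0486% and 0.271% of all features. That member was the 78 nt feature at chr1:116751203, which edgeR also called with no filter (1.65% of all features). It had 41.3 and 43.5 CPM in the saline females and 24.5, 10.7 and 12.1 CPM in the fentanyl females, without overlap. The change was -1.32 ± 0.31 on the log2 scale, and the adjusted p was 0.507 by edgeR and 0.0388 by DESeq2. In VTA males it had 30.3 and 29.0 CPM with saline and 32.7, 30.2 and 22.0 CPM with fentanyl, which overlapped.

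The smallest unadjusted p over both sexes in the VTA belonged to the 85 nt feature on chromosome 3 (-0.54 ± 0.14, edgeR, adjusted p 0.376). Its values were 33.0 and 40.1 CPM in saline females, 18.2, 20.4 and 29.0 CPM in fentanyl females, 40.3 and 40.6 CPM in saline males and 35.2, 24 and 22.5 CPM in fentanyl males. The groups did not overlap in either sex, and the change did not pass the test. Each sex had only 2 saline and 3 fentanyl rats in the VTA. The share of all features without overlap there is not given here. A 191 nt feature at chr10:89511688 had the smallest p in the other direction (1.97 ± 0.60, adjusted p 0.433), from 0.172 to 0.729 CPM in the 4 saline rats and 0.952 to 1.98 CPM in the 6 fentanyl rats.

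Within the 10 rats that gave both regions, the fentanyl effect differed between VTA and NAc for no member of 321 by edgeR and for none by DESeq2, and 0% and 0.00676% of all features were called. An unadjusted p under 0.05 was seen in 13 members (4.05%, against 5.68% of all features). The smallest belonged to the 102 nt feature on chromosome 4, whose effect in the VTA minus that in the NAc was -0.53 ± 0.15 (adjusted p 0.781). Its VTA values were 101 and 113 CPM in saline males and 97.8, 118 and 105 CPM in fentanyl males, which overlapped.

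Members also stood in runs, defined as 5 or more with gaps under 100 kb. The largest run had 11 members of 77 to 79 nt, all on the minus strand and outside other features, at chr1:116699082-116751280, a span that holds 22 features of this shape. The 78 nt feature described above was its most abundant member, with 3654 of the 6709 counts of the run, followed by a 79 nt feature at chr1:116703694 with 999. Both were called lower with fentanyl in NAc females (-1.21 and -0.64), against 5.45% of all features, but the 79 nt feature was not called without fentanyl female replicate 1 or saline female replicate 1 or 4. All 9 members of the run that passed the filter had log2 fold changes below 0 there, from -0.39 to -1.21, and with no filter all 11 did. With no filter 2 of the 11 passed the test, where 3.74% of all features were called lower. Neighbouring members with near-identical lengths may share reads, and how reads with several alignments were counted is not stated.

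Summed over the run, saline females had 84.5 to 103 CPM in the NAc and fentanyl females 33.6 to 65.7 CPM. In the VTA the sums were 63.2 to 72.0 CPM in saline females and 24.1 to 34.6 CPM in fentanyl females. The groups did not overlap in either region. In males they overlapped in both: 72.0 to 82.8 CPM with saline and 61.2 to 84.4 CPM with fentanyl in the NAc, and 55.0 to 60.1 CPM and 32.1 to 58.7 CPM in the VTA. The fentanyl females whose sums are given in the VTA are among those of the NAc, so the regions are not independent samples. In the VTA there were 2 saline and 3 fentanyl females. The 78 nt feature held 3654 of the 6709 counts of the run, so the sums partly repeat its values. Sums without it were not compared. The run's sum was lower in the VTA than in the NAc in 10 of 10 rats, and 5 of its 9 members tested were called lower in the VTA (4 of 11 with no filter), against 31% of all features (16.8% with no filter).

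A run of 7 members of 72 to 95 nt at chr1:194917277-195072378, also on the minus strand and outside other features, had a summed level of 46.8 ± 9.05 CPM in the NAc (SD, n = 14) and 25.2 ± 3.65 CPM in the VTA (SD, n = 10). It was lower in the VTA in 10 of 10 rats, and 4 of its 5 members tested were called lower, against 31% of all features. In NAc males its sum was 50.4 to 65.4 CPM with fentanyl and 43.5 to 49.7 CPM with saline, without overlap. In NAc females it was 33.3 to 50.8 CPM and 36.7 to 42.3 CPM, which overlapped, and no member of it that passed the filter was called in either sex. The run at chr1:56860067-56880620 held 5 members of 77 to 78 nt, all in introns of the same longer feature and on its strand. Its sum was 21 ± 6.66 CPM in the NAc and 14 ± 4.45 CPM in the VTA, lower in 9 of 10 rats, and 2 of the 5 members were called lower, near the 31% of all features.

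The other runs differed less between the regions. At chr13:78852741-78855688, 8 members of 62 to 85 nt on the plus strand stood within 2.95 kb and summed to 19.4 ± 2.64 CPM in the NAc and 15.4 ± 2.94 CPM in the VTA. At chr8:13867302-13878073, 8 members of 70 to 137 nt, 7 of them in introns on the strand of a longer feature, summed to 27.0 ± 5.08 CPM and 26.0 ± 5.30 CPM. In that run 1 member was higher in the VTA, the 70 nt feature whose longer feature was lower, and 3 were lower, of 5 tested. Of all features 32% were called higher and 31% lower.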

How the data were processed

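The authors deposited raw counts per Ensembl feature, 1 table per library with no normalization, with chromosome, start, end, strand and length columns. Per the submitters' processing notes, the tools were STAR 2.5.2b, Subread 1.5.2 with featureCounts, Trimmomatic 0.36 and DESeq2, in roles the notes do not state. The build, the annotation, the strand setting and how multiply aligned reads were counted are not given here. Per the labels' protocols, RNA was purified on columns (RNA integrity number 8.0 to 9.2), ribosomal RNA was depleted, and paired reads of 150 nt were sequenced.

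Groups came from the labels (region, sex, treatment), and replicates are separate rats by their animal code. No libraries of a group were copies: in 26 pairs, chi-square divided by its degrees of freedom ranged from 2.61 to 20.9 (features of 50 counts or more). The animal code pairs the NAc and VTA libraries of 10 rats, whose deviations correlated by 0.0374 on average, against -0.00286 in 130 pairs of different rats.

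All features were fitted together with edgeR 4.0.16 in R 4.3.3: TMM scaling, filterByExpr, robust dispersion and the two-sided quasi-likelihood F test, with Benjamini-Hochberg adjustment. Each region was fitted with its 4 groups of sex and treatment, and regions were compared within rats with rat as a block. Standard errors were derived from the F statistic. Alternatives were DESeq2 1.42.0 (its size factors and its test), library totals, no filter, no mitochondrial features, blocks, stricter members and leaving out each library or rat. Counts were also simulated with 1 fixed dispersion and with known changes only in genes above a minimum mean count. The NAc female comparison recovered 80.4% of 92 changes of 2-fold and 94.8% of 96 of 4-fold (13152 genes tested). For the VTA female comparison these were 48.4% of 95 and 91.8% of 98 (14162 tested). The region comparison recovered 97% of 99 and 100% of 97 (14218 tested). The median member had 113 counts over the 24 libraries, so these rates do not describe the sparser members. Floors and precision cover counting error only.

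The members and lists were chosen with earlier results of these data known. Members were named by level per length (8 per length class), by adjusted p (at most 6 each way per comparison; where none was called, at most 2 each way by unadjusted p), by fold change between regions (at most 5 each way with a mean of at least 1 CPM), at the count limit, and in runs; not all named by these rules are printed, and IDs are limited to 2 each way per comparison. The feature over a member is the overlapping one with the most counts on the strand that sets its class. None of the 32552 IDs matched the RefSeq table (0 matches), so lists by symbol (small RNA classes, their protein partners, cell type markers) and sequences were not used here.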

Additional observations from a re-analysis of the deposited data

Results flagged for a closer look

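Among the members named in the report, 118 groups of 4 libraries were examined for a library that stands apart from the others, and 5 were found; chance gives about 1 in 20. In the fentanyl females of the NAc, the 104 nt feature at chr5:93420325 had 42.1 CPM in replicate 1 and 17.5 to 20.5 CPM in the other 3. In the same group the 77 nt feature at chr3:154973554 had 3.39 CPM in replicate 7 and 1.69 to 1.98 CPM in the others. At the limit of the count rule, the 101 nt feature at chr14:30308423 and the 96 nt feature at chr20:27996722 each had 1.22 CPM in replicate 8 and no count in the others. Each of these values rests on 5 counts. Where the others have no count, any library with a count is flagged. In the fentanyl males of the NAc, the 171 nt feature at chr3:29600426 had 3.89 CPM in replicate 7 and 8.28 to 9.03 CPM in the others. A tested difference between groups was found for the 113 nt feature at chr14:66535979, whose fentanyl effect in NAc females exceeded that in males by 1.55 on the log2 scale.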

How the results depend on the processing

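With library totals as the scale, the split of called members turned from 20 higher and 8 lower to 10 and 14 in NAc females and from 8 and 5 to 6 and 8 over both sexes. None of the 42 called results for named members changed sign: of 767 recomputed values, 674 kept their side of the threshold and 93 lost the call. Members named without a call in the main fit were not part of this count. With no filter on low counts, 1 member was called in NAc males, 1 in VTA females, 1 in VTA males (a 164 nt feature at chr2:198524137), 2 in the VTA over both sexes (the 85 nt feature on chromosome 3 and the 78 nt feature at chr1:116751203) and 7 for the sex difference in the NAc, where 0.185%, 1.65%, 0.45%, 1.97% and 1.56% of all features were called. DESeq2 called 1 in NAc males, 1 in VTA females and 4 for the sex difference. With the animal number as a replicate block, 24 members were called in NAc females, 3 over both sexes and 3 for the sex difference (10.8%, 2.57% and 1.78% of all features); no label says that the number pairs rats, and deviations of same-numbered libraries correlated by -0.00884 on average in the NAc (12 pairs) and by 0.00312 in the VTA (10 pairs). For the regions, 162 members were called without the rat as a block (62.7% of all features) and 96 among members with at least 240 counts, which are fewer (155). Leaving out 1 library or rat gave 10 to 33 called members in NAc females, 0 to 0 in NAc males, 3 to 19 in the NAc over both sexes, 0 to 4 for the sex difference, 0 to 1 in VTA females (1 without fentanyl female replicate 1), 0 to 0 in VTA males, over both sexes in the VTA and for the region difference of the effect, and 152 to 184 between regions. The shares of all features called in the fits without 1 library or rat are not given here. Summed levels over counts outside the mitochondrial chromosome were 780 CPM in the NAc and 504 CPM in the VTA under 100 nt, and 3541 and 2669 CPM from 100 nt up. Over all counts, the longer class had 2529 CPM in the NAc and 2080 CPM in the VTA, and 1248.5 and 938 CPM without the 112 nt feature. Leaving out 1 library moved the sums over all counts between 553 and 568 CPM (NAc) and 383 and 404 CPM (VTA) under 100 nt. For the longer class these sums ran from 2490 to 2566 CPM and from 2051 to 2104 CPM. Depth limits what can be called: the median member had 113 counts over 24 libraries.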
